A study of Mus musculus with 3 samples.

Results

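The 10 genes described here, Krt6a, Krt6b, Krt16, Krt17, Krt75, Krt7, Krt8, Krt18, Krt19 and Krt20, are the keratins that skin uses outside the ordinary basal and suprabasal epidermis, in the hair follicle's companion layer, in wounded or stressed epidermis, in the periderm and in glandular and Merkel cells. They were chosen by symbol, and all 10 were found among the 21877 gene rows common to the tables, which hold 52 keratin genes. The samples were whole skin from the inbred mouse strain FVB, taken from embryos at day 18.5 (E18.5), pups at postnatal day 3 (P3) and adults of 10 weeks, and were profiled by RNA-seq. The table headers mark all 3 groups as wild type (WT), the labels name no treatment, and each age has 1 averaged FPKM value per gene (fragments per length of transcript and number of mapped fragments). The design text mentions 2 biological replicates for each age, but separate values were not analysed here, so no difference below has a standard deviation, a p-value or a replicate check, and the sequencing depth is unknown.

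Keratins are the intermediate filament proteins of epithelial cells. Each filament is built from pairs of a smaller, acidic type I keratin and a larger type II keratin, so that cells make the 2 types together. Krt6a and Krt6b (type II) with Krt16 and Krt17 (type I) are kept in hair follicles and are switched on in epidermis after wounding, while Krt75 (type II) marks the companion layer between the outer and inner root sheaths of the hair. Krt8 and Krt18 are the founding pair of simple epithelia and are also found in periderm and in Merkel cells, the touch receptors of skin. Krt7, Krt19 and Krt20 are further keratins of simple and glandular epithelia, with Krt19 also known from the hair follicle bulge and Krt20 from Merkel cells.

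How far reads can tell these genes apart limits what their values mean, and Krt6a and Krt6b are the extreme case. In the GENCODE M21 transcripts (GRCm38), the coding sequences of Krt6a (1662 bases) and Krt6b (1665 bases) were 97.6% identical, with a longest identical run of 280 bases. Of all 50-base words in the Krt6a transcript, 43.6% also occurred in Krt6b, and of those of Krt6b 44.5% occurred in Krt6a. Ungapped windows of 120 aligned coding bases of Krt6a and Krt6b were compared at regular steps, not at every base. The window with most differences, coding bases 751 to 870 of both genes, is shown first, with the 17 differing bases in capitals. A window that is the same in both (coding bases 61 to 180) follows and cannot assign a read to either.
Krt6a: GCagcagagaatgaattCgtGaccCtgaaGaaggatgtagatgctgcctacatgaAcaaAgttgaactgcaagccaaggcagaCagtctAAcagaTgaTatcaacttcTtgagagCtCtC
Krt6b: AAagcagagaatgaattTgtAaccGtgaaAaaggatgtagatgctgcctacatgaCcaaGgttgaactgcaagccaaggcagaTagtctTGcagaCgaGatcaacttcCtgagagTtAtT
Krt6a and Krt6b: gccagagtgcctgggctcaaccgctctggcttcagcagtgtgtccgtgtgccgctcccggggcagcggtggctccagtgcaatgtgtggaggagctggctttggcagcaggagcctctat

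The other members were more distinct. Krt75, Krt7, Krt19 and Krt20 shared no 50-base word with any other gene of that annotation, Krt18 shared 0.72% and Krt17 3.99%. Krt8 shared 26.9% with the listed pseudogene Krt8-ps. Krt16 shared 37.6%, mostly with Gm11597 and, for 188 words, with Krt14, the abundant basal keratin. How the authors' counting divided shared reads is not given in the sources used here, so the levels of Krt6a, Krt6b, Krt16 and Krt8 are uncertain gene by gene.

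The 10 keratins followed 2 courses over the 3 ages. Krt6a, Krt6b, Krt16, Krt17 and Krt75 all had their highest value at P3 and lower values before birth and in the adult. Krt8, Krt18, Krt19 and Krt20 instead had their highest value at 10 weeks, with P3 between the other ages. Krt7 was highest at P3. The summed FPKM of the first 5 genes was 335, 1288 and 449 at E18.5, P3 and 10 weeks, and that of Krt7, Krt8, Krt18, Krt19 and Krt20 was 5.99, 16.0 and 47.1. Below, a gene is called higher or lower when log2(FPKM + 1) differs by at least 1 between 2 ages, which is 2-fold on that scale; the added 1 understates the change of low genes.

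**Figure D1:**
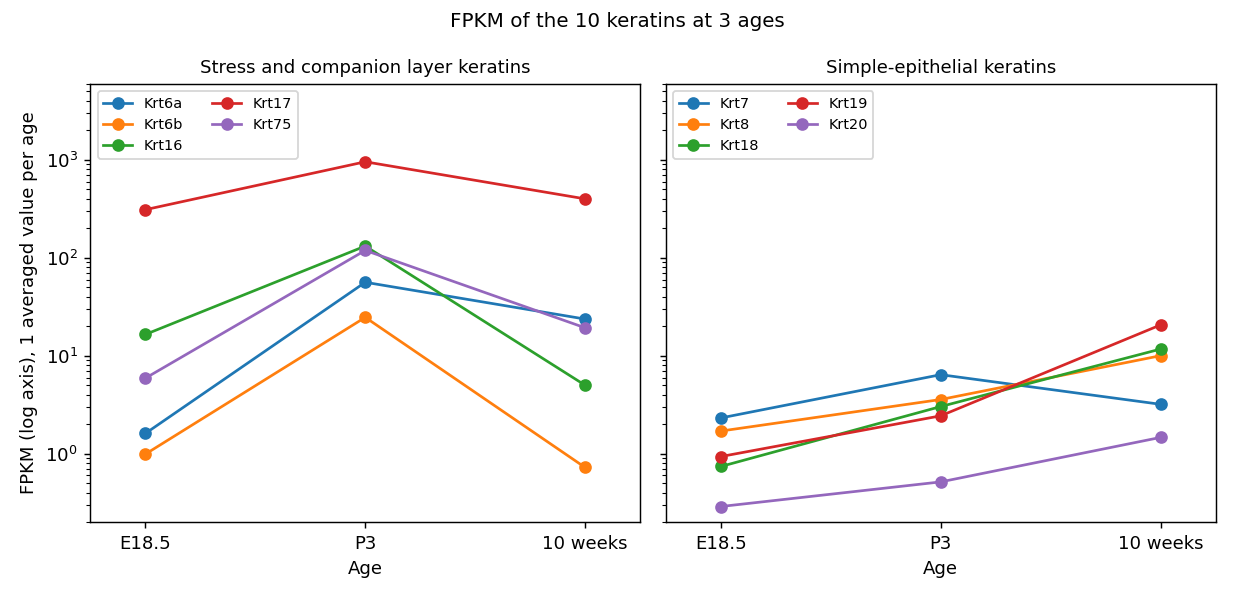
FPKM (log axis) of the 10 keratins at E18.5, P3 and 10 weeks, 1 averaged value per gene and age, joined by lines for each gene; no error can be drawn. The 5 stress and companion layer keratins (left) peak at P3, where Krt17 reaches 956 FPKM, and 4 of the 5 simple-epithelial keratins (right) are highest at 10 weeks, where Krt19 reaches 20.7 FPKM.

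From E18.5 to P3, 7 of the 10 were higher and 0 lower (median on the log2 scale 1.42). Of all 14653 genes, 9.56% were higher and 9.42% lower, 19% in all, and their median was 0.03. From P3 to 10 weeks 3 were higher and 5 lower, with a median of -1.02, beside 19.8% of genes higher and 9.98% lower (29.8% in all) and a median of 0.14. From E18.5 directly to 10 weeks 5 were higher, Krt6a, Krt75, Krt8, Krt18 and Krt19, and 1 was lower, Krt16, with a median of 1.25 (all genes: 16.1% higher, 6.92% lower, 23% in all, median 0.22). Relative to the mean of Krt5 and Krt14, the log2 difference from E18.5 to P3 turned negative for all 5 simple keratins, Krt7 (-0.18), Krt8 (-0.58), Krt18 (-0.13), Krt19 (-0.51) and Krt20 (-1.10). On that reference, however, the median of all genes at this step was -1.3, below each of these 5 values. Krt6a (0.59), Krt17 (0.55) and Krt7 (0.98) turned positive on it after P3, where the all-gene median was 1.95. Krt6b (0.26) did so between E18.5 and 10 weeks, where that median was 0.68. Each of these positive values thus lay below the all-gene median. The pattern of sex-linked genes also differed with age: Xist was at 0.0433, 64.6 and 73.0 FPKM, while the Y-linked genes Eif2s3y (42.1 FPKM) and Ddx3y (24.1 FPKM) were present at E18.5 and under 0.1 FPKM at both later ages. In the 2 comparisons with E18.5, age and sex therefore cannot be told apart. The 3 comparisons share their libraries, so the P3 value of a gene enters 2 of them with opposite sign. All 10 passed the minimum of 1 FPKM at 1 or more ages, Krt6b through its P3 value alone and Krt20 through its adult value alone.

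Among the stress keratins, Krt17 was by far the most abundant at every age. Krt17 (mm9 chromosome 11, 100117531 to 100122303), which is made throughout the outer root sheath, had 310 FPKM before birth, 956 at P3 and 399.9 in the adult. It was 18.8, 7.25 and 16.9 times the next member at the 3 ages, and at P3 it had rank 5 among the keratins with a value at that age. The log2 difference was 1.62 from E18.5 to P3 and -1.26 from P3 to 10 weeks, so it was called at both steps, while E18.5 and 10 weeks differed by 0.36. The basal keratins Krt5 and Krt14 moved in the same way, with log2 differences of 1.32 and 1.36 and then -1.69 and -1.91. Per unit of Krt14, Krt17 was at 0.326, 0.392 and 0.619 FPKM per FPKM at the 3 ages, largest in the adult.

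Krt16 (chromosome 11, 100107406 to 100110216), the usual type I partner of Krt6 in wounded and palmoplantar epidermis, had 16.5 FPKM before birth, 132 at P3 and 5.01 in the adult. The adult value was thus the lowest, 3.30 times under E18.5, and Krt16 was the only one of the 10 called lower at 10 weeks than at E18.5 (log2 difference -1.54, with Krt6b at -0.21 not called). Its log2 differences at the separate steps were 2.92 and -4.47. Although the genes lie next to each other and encode alike proteins, Krt17 and Krt16 kept no fixed proportion: the FPKM ratio of Krt17 to Krt16 was 18.8, then 7.25, then 79.9.

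Krt6a was at 1.61, 56.3 and 23.7 FPKM, and Krt6b at 0.992, 24.7 and 0.725. Both are listed in the tables with a single span (chromosome 15, 101346119 to 101524736) that holds 11 genes, Krt75 among them. Krt6a had the largest log2 difference of the 10 from E18.5 to P3, 4.45, and was still higher in the adult than before birth (3.24). Krt6b had log2 differences of 3.69 and -3.90, and in the adult it returned to within 0.21 of its E18.5 level. The deposited values thus put the ratio of Krt6a to Krt6b at 1.63, 2.28 and 32.7. How reads shared by both were divided is unknown, so the sum is given too: Krt6a and Krt6b together were at 2.61, 81.0 and 24.4 FPKM, with log2 differences of 4.51 at the first step, -1.69 at the second and 2.82 over both. The sum does not remove sharing with other genes. Krt5, at 1058, 2638 and 816 FPKM, shared 150 of the 50-base words of Krt6a and 49 of those of Krt6b. The relatives Gm5478 and Gm5414, which share sequence with both, were under 1 FPKM at every age (Gm5478 at 0.693, 0.143 and 0.0272, Gm5414 at 0.786, 0.190 and 0.277).

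Krt75, the companion layer keratin, which is also made in the hair medulla, was at 5.92, 119 and 19.3 FPKM. At P3 it stood close to Krt16 (a ratio of 1.11 between them), and in the adult close to Krt19 and Krt6a. The log2 differences were 4.12, -2.56 and, from E18.5 to 10 weeks, 1.55. Of the 5 keratins highest at P3, Krt6a and Krt75 thus kept more than 2-fold of their increase in the adult, Krt17 and Krt6b were back within 2-fold of E18.5, and Krt16 was below it.

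The partner proportions show the same unevenness. Type II Krt6a and Krt6b together were 0.00797 of the FPKM of type I Krt16 and Krt17 before birth, 0.0745 at P3 and 0.0603 in the adult, so that the type I side was in excess at every age. Most of that excess was Krt17, which also pairs with Krt5 in the outer root sheath. Set against Krt16 alone, Krt6a and Krt6b went from 0.158 to 0.614 and 4.88, that is from less than their partner to more.

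**Figure D2:**
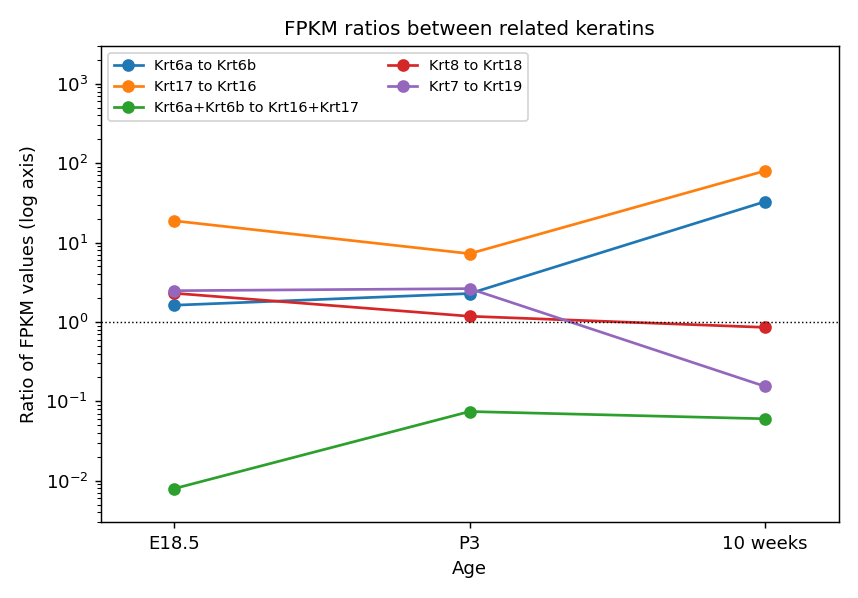
Ratios of FPKM values (log axis) between related keratins at the 3 ages, each computed from 1 averaged value per gene; the dotted line marks equal FPKM. Krt6a to Krt6b and Krt17 to Krt16 are widest at 10 weeks (32.7 and 79.9), Krt7 to Krt19 turns from 2.63 at P3 to 0.155 at 10 weeks, and Krt8 to Krt18 stays between 0.855 and 2.30.

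Among the simple-epithelial keratins, Krt19 (chromosome 11, 100002126 to 100007233), a type I keratin without the usual tail domain, had 0.937 FPKM before birth, 2.44 at P3 and 20.7 in the adult. Most of its difference lay after P3, with log2 differences of 0.83 and 2.65. In the adult it had rank 3 of the 10, above Krt75 and Krt16. Krt15, the basal keratin also known from the bulge, moved much less (488, 726 and 969 FPKM), and the ratio of Krt19 to Krt15 was 0.00192, 0.00336 and 0.0213.

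Krt8 (chromosome 15, 101827142 to 101834773) was at 1.71, 3.58 and 10.0 FPKM, and its partner Krt18 (chromosome 15, 101858647 to 101862457) at 0.742, 3.03 and 11.7. Krt18 is the type I gene that lies in the type II cluster, beside Krt8. Both were higher in the adult than at P3, with log2 differences of 1.27 for Krt8 and 1.66 for Krt18, and Krt18 was called higher at P3 as well (1.21 against 0.76 for Krt8). The ratio of Krt8 to Krt18 was 2.30, 1.18 and 0.855, so that the pair stayed within 2.30-fold of equal FPKM. With Krt19 added to the type I side it was 1.02, 0.654 and 0.310.

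Krt20 (chromosome 11, 99289717 to 99299467) was the lowest member at E18.5 and P3, at 0.289, 0.516 and 1.47 FPKM. Its order over the ages was that of Krt8, Krt18 and Krt19, but no log2 difference reached 1 (0.23, 0.70 and 0.94). With a pseudocount of 0.1 it was called higher in the adult (1.35 from P3 and 2.01 from E18.5), and the plain FPKM ratio of the adult to E18.5 was 5.07. The precision of such low levels is unknown. Krt7 (chromosome 15, 101242834 to 101258237), a type II keratin of ducts and glands, was at 2.32, 6.42 and 3.20 FPKM. It was higher at P3 by 1.16 and differed by -0.82 at the next step, so it did not follow the other simple keratins. The ratio of Krt7 to Krt19 was 2.48 and 2.63 at the first 2 ages and 0.155 in the adult.

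Promoter windows are printed for the pair Krt8 and Krt18, both highest in the adult, and for Krt75 as a keratin of the other course. A link between these letters and the courses was not tested. RefSeq promoter windows (250 bases before to 50 after the gene start, GRCm38.p6) were matched for 5 members, Krt75, Krt7, Krt8, Krt18 and Krt20, and not for Krt6a, Krt6b, Krt16, Krt17 and Krt19. The 3 windows follow, on the gene's strand (Krt8 and Krt75 minus, Krt18 plus), at chr15:102004293-102004592, chr15:102027966-102028265 and chr15:101573855-101574154, with motif matches in capitals.
Krt8: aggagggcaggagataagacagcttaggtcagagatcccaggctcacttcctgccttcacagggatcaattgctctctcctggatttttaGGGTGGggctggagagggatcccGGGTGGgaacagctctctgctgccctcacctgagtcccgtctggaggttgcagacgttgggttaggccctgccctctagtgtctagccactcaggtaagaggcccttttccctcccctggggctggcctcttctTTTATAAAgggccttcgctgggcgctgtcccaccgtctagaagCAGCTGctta
Krt18: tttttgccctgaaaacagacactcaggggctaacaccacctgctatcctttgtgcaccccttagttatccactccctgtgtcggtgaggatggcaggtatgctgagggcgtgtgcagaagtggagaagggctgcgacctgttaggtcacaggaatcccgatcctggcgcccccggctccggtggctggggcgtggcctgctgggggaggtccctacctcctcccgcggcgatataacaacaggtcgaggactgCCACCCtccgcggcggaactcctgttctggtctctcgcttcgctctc
Krt75: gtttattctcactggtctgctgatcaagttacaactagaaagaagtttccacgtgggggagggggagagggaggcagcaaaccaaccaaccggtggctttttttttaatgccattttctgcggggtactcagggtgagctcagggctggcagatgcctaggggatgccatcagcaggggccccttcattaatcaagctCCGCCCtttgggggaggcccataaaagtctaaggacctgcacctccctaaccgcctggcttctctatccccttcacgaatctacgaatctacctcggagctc

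Motifs were searched on both strands, and overlapping matches are merged in the capitals. The TATA box was searched with the letters TATAAA, which 13.6% of all 32851 windows of this length held. The Sp1 motif was searched as GGGCGG (held by 35.7% of windows), the Klf motif as CCACCC (31.5%), an E-box as CAGCTG (16.3%) and the AP-1 motif as TGANTCA (7.81%). Krt8 held 2 overlapping matches to the TATA box at the annotated start, a pair of Klf matches and 1 E-box, Krt18 held 1 Klf match, and Krt75 held 1 Sp1 match. Krt7, not printed, held 4 Sp1 matches, and Krt20 a TATA box at -29 from the gene start and 1 Klf match. None of the 5 windows held the AP-1 letters. The GC content was 58.0% for Krt8, 61.3% for Krt18, 53.7% for Krt75, 66.3% for Krt7 and 50% for Krt20, beside a median of 52.7% over all windows. A match is a description of the letters and shows no binding.

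Set in the keratin family, the P3 peak was the common course and the adult peak the uncommon one. Of the 42 other keratins, 37 passed 1 FPKM and 35 had values at all 3 ages, since the P3 estimates of Krt1 and Krt10 failed. From E18.5 to P3, 32 of these 35 were higher and 0 lower (median 3.46), most of them hair shaft and inner root sheath keratins. From P3 to 10 weeks 30 were lower and 2 higher (median -3.59), the latter being Krt24 and Krt77. The same directions as Krt8 and Krt19, that is higher at 10 weeks than at both other ages with no call at P3, were found for Krt24 (0.118, 0.793 and 4.34 FPKM). Krt77 (18.7, 224 and 963 FPKM) was called at each step, as was Krt18. The directions of Krt6b and Krt17, higher at P3 and neither way between E18.5 and 10 weeks, were found for 25 other keratins, Krt5, Krt14, Krt23 and Krt79 among them. Krt12 shared those of Krt16 (5.89, 25.1 and 0.110 FPKM), and Krt33a, Krt33b, Krt36 and Krt72-ps shared those of Krt6a and Krt75.

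**Figure D3:**
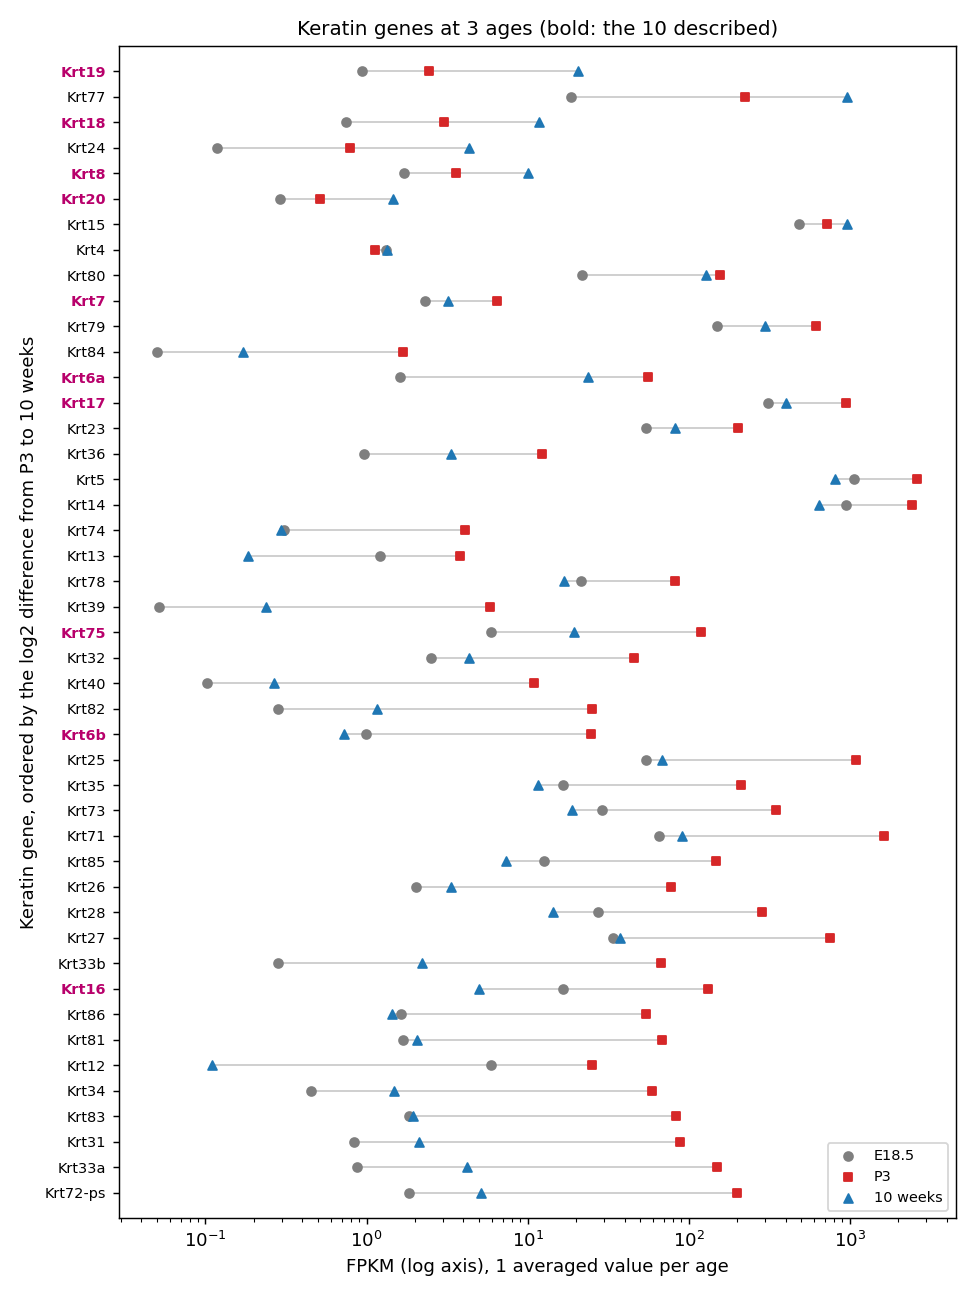
FPKM (log axis) of the 45 keratins that reached 1 FPKM at any age and have a value at all 3, at E18.5 (circles), P3 (squares) and 10 weeks (triangles), ordered from top to bottom by the log2 difference from P3 to 10 weeks; bold names are the 10 described. Krt19, Krt18, Krt8 and Krt20 stand among the few keratins at the top whose adult value is the highest. Krt16 and Krt6b stand further down, with differences of -4.47 and -3.90 beside a median of -3.59 for the keratins not described.

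As shares of keratin FPKM, with Krt1 and Krt10 left out at all ages, the 5 type I members held 16.7%, 14.9% and 19.1% of the type I total at the 3 ages, nearly all of it Krt17 (15.7%, 13.0% and 17.4%). The 5 type II members held 0.897%, 3.23% and 2.36% of the type II total. Krt16 went from 0.838% to 1.79% and 0.218%, and Krt19 from 0.0475% to 0.0331% and 0.900%. Krt8 went from 0.122% to 0.0550% and 0.416%. By these shares, then, Krt8 and Krt19 were lowest at P3, when the summed totals were highest. The omission is large: Krt1 and Krt10 had 3688 and 4499 FPKM at E18.5, beside remaining totals of 1399 (type II) and 1971 (type I). Without their P3 values, the order of shares among all keratins is unknown. The share of Krt6a was 0.115%, 0.866% and 0.984%, so that its adult share was not below that at P3, while its FPKM was.

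Other genes of the same cells were followed in lists. In whole skin, fewer cells of a type and less RNA per cell cannot be told apart, and this holds for each keratin above. Basal keratinocyte genes were higher at P3 in 4 of 11 cases and lower in 0 (median 0.94), and from P3 to 10 weeks lower in 4 and higher in 0 (median -0.71). Companion layer, outer root sheath and upper follicle genes other than the members were higher at P3 in 5 of 10 (median 1.15). From P3 to 10 weeks 5 were lower and 1 higher (median -0.96). These lists overlap: Krt5, Krt14 and Krt15 also count among the basal keratinocyte genes, and Krt79 among the sebaceous gland genes. The connexin gene Gjb6 was at 9.87, 34.1 and 1.47 FPKM, Krt79, of the upper follicle and sebaceous duct, at 151, 622 and 299, and the defensin Defb6 at 0.104, 61.8 and 1065. Periderm genes were higher at P3 in 7 of 10 (median 1.18) and then lower in 6 (median -1.13), with 0 in the opposite direction at either step. They included the GABA receptor subunit Gabrp (2.63, 24.6 and 5.65 FPKM) and Grhl3, a regulator of the epidermal barrier (9.88, 40.8 and 10.1). Krt8, Krt18 and Krt19, which belong to the periderm too, had the opposite order after P3.

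Genes of the keratinocyte response to wounds and stress, Krt6a, Krt6b, Krt16 and Krt17 left out, were higher at P3 in 11 of 21 cases and lower in 1 (median 1.37). They split from P3 to 10 weeks, with 6 higher and 9 lower (median -0.13). The envelope protein gene Sprr1b (4.58, 61.2 and 0.201 FPKM), the connexin gene Gjb2 (20.1, 172 and 10.2) and Lce3c (log2 difference -3.83 after P3) had the course of Krt16. The interleukin Il1b (0.241, 0.563 and 20.5) and the metalloproteinases Mmp3 (0.199, 1.10 and 26.3) and Mmp9 (0.682, 0.234 and 12.0) were instead highest in the adult; immune cells and fibroblasts make these as well. Stfa1, a stefin with near-identical relatives, was the 1 lower at P3 (354 to 1.53 FPKM).

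Of 22 genes known to regulate stress keratins, 8 were higher and 0 lower at P3 (median 0.70), and from P3 to 10 weeks 6 were higher and 3 lower (median 0.05). The AP-1 genes Fos and Junb were higher at each step, Fos at 7.93, 57.9 and 649 FPKM and Junb at 17.8, 87.9 and 242. Klf4, a regulator of barrier formation, was at 57.3, 245 and 173. Of the 3 that were lower in the adult, the Hedgehog effectors were at 34.9, 19.7 and 6.64 (Gli1) and 8.09, 6.85 and 2.20 (Gli2), and Ovol1 at 13.1, 45.5 and 12.9. Keratin-binding and desmosome plaque genes were higher at P3 in 9 of 16 (median 1.53) and then lower in 8 and higher in 1 (median -0.65), with Evpl at 17.6, 75.6 and 16.7 and Pkp1 at 127, 414 and 97.5 FPKM. Proliferation genes differed 2-fold in 0 of 14 cases from E18.5 to P3 and were lower in the adult in 13 of 14 (median -2.41). The part of these regulators and of proliferation in the keratin levels was not tested.

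Markers of the cells known to make simple keratins did not share 1 course. Of the Merkel cell genes other than the members, 16 were listed and 8 passed 1 FPKM. Of these 8, 2 were higher and 1 lower from E18.5 to P3 (median -0.38), and 3 were higher and 2 lower from P3 to 10 weeks (median 0.24). The 3 higher in the adult were Cck (0.123, 0.802 and 9.22 FPKM), the factor Isl1 (0.933, 0.114 and 2.88) and the synaptic vesicle gene Syp (1.12, 0.888 and 4.12). The summed FPKM of the 16 was 20.1, 41.4 and 21.2. Most of the P3 sum came from Chga (4.10, 17.7 and 0.111 FPKM) and Tubb3 (1.99, 16.5 and 1.28), which other neural and endocrine cells also make. Atoh1, the factor that defines Merkel cells, was at 0.338, 0.0649 and 0.0239 FPKM, Sox2 at 1.14, 0.417 and 0.491, and Pou4f3 and Sst were listed at 0 in the adult. The part of Merkel cells in the levels of Krt8, Krt18 and Krt20 was not tested.

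Simple and glandular epithelium genes were higher at P3 in 10 of 17 cases and lower in 1 (median 1.63), and from P3 to 10 weeks higher in 3 and lower in 4 (median -0.56). Cldn4 (16.3, 122 and 29.3 FPKM), Spint1 (10.5, 58.9 and 15.4) and Cdh1 (44.2, 159 and 53.9), which stratified keratinocytes also use, had the P3 peak of Krt7. The 3 higher in the adult were Wfdc2 (0.293, 0.164 and 5.44), the factor Foxa1 (0.0106, 0.0245 and 2.03) and the water channel of secretory glands Aqp5 (0.274, 0.503 and 3.26), as were Krt8, Krt18 and Krt19. Sebaceous gland genes were higher at P3 in 10 of 13 and lower in 0 (median 1.69). From P3 to 10 weeks 6 were higher and 3 lower (median 0.91), with the largest differences in Scd3 (4.44), Awat2 (3.93) and Scd1 (3.50), of which Awat2 alone was also called higher at P3.

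Mammary epithelium, which also makes Krt8, Krt18 and Krt19, was followed too, beside the difference in sex-linked genes between E18.5 and the later ages given above. Mammary genes were higher at P3 in 8 of 14 and lower in 1 (median 1.96), and then higher in 5 and lower in 6 (median -0.48). The milk protein genes Csn2 (0.0229, 46.4 and 1.09 FPKM) and Glycam1 (0.0174, 17.5 and 0.178) were highest at P3, as was Csn1s1. Wap was at 28.9 FPKM at P3 and listed at 0 at the other ages. Csn3 (0.171, 3.81 and 9.73), Lalba (0.314, 0.548 and 1.30) and Ltf (0.368, 0.263 and 1.54), also of milk, were instead highest in the adult. The progesterone receptor gene Pgr (0.0898, 0.0449 and 9.94) and the prolactin receptor gene Prlr (2.49, 2.19 and 7.54) were highest in the adult. Skeletal muscle, in which keratins of simple epithelia are also known, had a summed FPKM over 18 genes of 5484, 469 and 26695, with 16 lower and 0 higher at P3 and 15 higher and 1 lower in the adult (medians -3.11 and 5.74). Krt8, Krt18 and Krt19 were lowest at E18.5, and the summed muscle FPKM was lowest at P3. The part of sebaceous, glandular, mammary and muscle cells in the adult levels of Krt8, Krt18 and Krt19 was not tested.

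**Figure D4:**
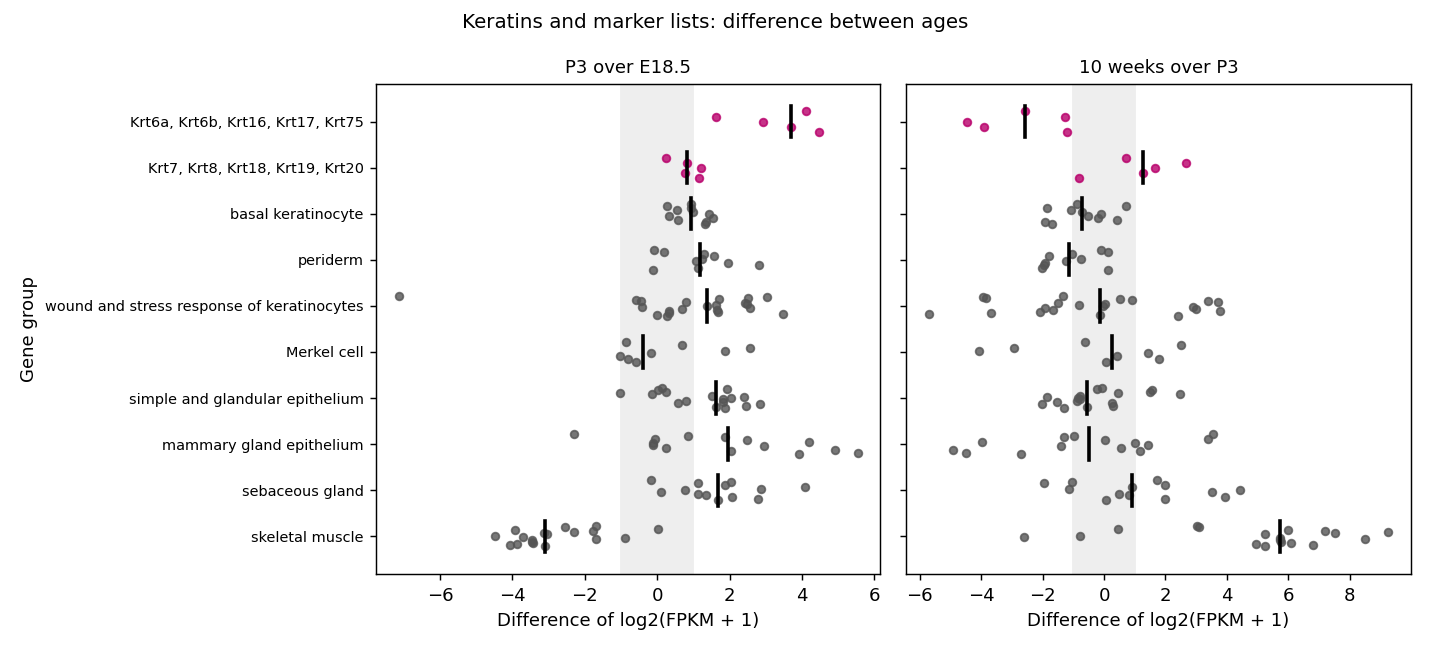
Difference of log2(FPKM + 1) from E18.5 to P3 (left) and from P3 to 10 weeks (right) for the 10 keratins in their 2 groups and for the genes of 8 lists that passed 1 FPKM, members left out; each point is 1 gene, the bar is the median, and the grey band holds differences under 2-fold. The stress and companion keratins lie right of the band at P3 and left of it at 10 weeks (medians 3.69 and -2.56), and the simple keratins have medians of 0.83 and 1.27.

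The genes whose log2(FPKM + 1) profiles, centred over the 3 ages, lay nearest by Euclidean distance differed between members. With 3 points per gene this is a weak description, and many genes can lie near: of 11596 genes with at least 5 FPKM at some age, 1441 lay within 0.5 of Krt7 and 539 of Krt17, but only 2 within that distance of Krt6a or Krt75. Nearest to Krt6a were the epithelial metallothionein gene Mt4 (18.8, 355 and 135 FPKM; distance 0.329) and Sprr1a (25.3, 649.9 and 190; 0.403), followed by Klk6 (0.508). Nearest to Krt75 were Rptn, of the cornified envelope (2.15, 48.3 and 6.64; 0.195), Csn1s1 (0.249) and Tchhl1 (0.525). Krt16 had 2300005B03Rik, Lce1f and Mlana (0.404 to 0.443), and Krt17 had Trpv3, a warmth channel of keratinocytes, Fcho1 and Sox21 (0.0120 to 0.0155). Krt8 had Sfrp1, Nfkbia and Arhgap9 (0.0352 to 0.0575), Krt18 had Alox5, Fbxo32 and Xdh (0.0214 to 0.128) and Krt19 had Sec14l4, Cck and Mbp (0.122 to 0.210). For Krt7 they were Snord35a, a short RNA gene whose FPKM is also unreliable, Zdhhc5 and Zranb1. For Krt6b they were Gm10318, Mir1907 and Mir3102, short or unnamed genes whose FPKM is unreliable.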

How the data were processed

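RNA of whole FVB mouse skin was extracted with Trizol and made into Illumina TruSeq libraries from 1 ug of total RNA, per the labels' protocols. The deposited values are FPKM, headed as an average, 1 per gene and age, per the file headers. TopHat2 2.0.7, Cufflinks 2.1.1 and build mm9 come from the submitters' processing notes. The annotation, strand setting and assignment of shared reads are unstated, that is, not given in the sources used here. Because the deposited FPKM hold no depth, the precision of low values is unknown.

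Values of 0 with a mark of failure (3 at E18.5, 7 at P3) were left out; none was a member, and all 30 member values were marked OK. The planned replicate test could not be applied to 1 value per age, so differences of log2(FPKM + 1) were called at 2-fold among genes reaching 1 FPKM at any age. The members, the 12 gene lists (216 entries, 211 found) and the tests were chosen with earlier results of these data known. Keratin types are the textbook classes. Genes named are the members, the keratins with a member's directions and the 3 nearest profiles per called member. From each list, up to 3 genes per direction and comparison with the largest difference are named. Defining markers at or near 0 (Atoh1, Sox2, Pou4f3, Sst), Lalba, Ltf, the sex-linked genes and the Krt6 relatives were named after values were seen. Starts have 1 added to the tables' 0-based values. mm9 coordinates are the tables'; sequences come from RefSeq (GRCm38.p6) and GENCODE M21 and were not converted between builds. Python 3.11.15, pandas 2.3.3 and numpy 2.4.6 were used. Alternatives covered pseudocount, minimum FPKM, scaling, a Krt5 and Krt14 reference, the threshold, the partners summed and, added after seeing the data, Krt6a and Krt6b as 1 gene.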

Additional observations from a re-analysis of the deposited data

How the results depend on the processing

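No paired analysis was possible because each age has 1 averaged value, and for the same reason no replicate could be left out. Of 243 differences of single members under the alternatives, 221 kept direction and call, 5 lost the call and 7 gained one in the same direction, and 10 changed sign, 4 of them called neither before nor after. The 243 include the differences under another minimum FPKM. That setting alters only which genes are counted, so these differences repeated the main values and could not change. With the mean of Krt5 and Krt14 as reference, which shifts the median of all genes to -1.30, 1.95 and 0.68, Krt7 (-0.18), Krt8 (-0.58), Krt18 (-0.13), Krt19 (-0.51) and Krt20 (-1.10) changed sign from E18.5 to P3, Krt6a (0.59), Krt17 (0.55) and Krt7 (0.98) from P3 to 10 weeks, and Krt6b (0.26) from E18.5 to 10 weeks. Members called were then 4 higher and 1 lower at P3, and 4 higher and 2 lower from P3 to 10 weeks. From E18.5 to 10 weeks 6 were higher and 1 lower. On this reference Krt17 at P3 (0.28) and Krt75 from P3 to 10 weeks (-0.76) lost their calls. Krt20 gained calls from P3 (2.51) and from E18.5 (1.40) to 10 weeks. Over all genes the counts higher and lower were then 238 and 10230, 12725 and 262, and 4511 and 625. With Krt6a and Krt6b summed, added after seeing the data, Krt6b took the value 2.82 from E18.5 to 10 weeks. At 4-fold, 4 members were higher at P3, 1 was higher and 3 lower from P3 to 10 weeks, and 0 lower from E18.5 to 10 weeks. All-gene counts higher and lower at the 3 comparisons were then 348 and 358, 1105 and 489, and 718 and 392; at 1.5-fold 2803 and 2654, 4503 and 2599, and 4178 and 1692. With a pseudocount of 5 they were 842 and 626, 1596 and 898, and 1274 and 561, and with 0.1, 2155 were lower at P3. A pseudocount of 5 ended the calls of Krt7 (0.64) and Krt18 (0.48) at P3 and of Krt8 at 10 weeks (0.81). A pseudocount of 0.1 added calls of Krt8 (1.03) and Krt19 (1.29) at P3, making 9 members higher, and of Krt20 from P3 (1.35) and from E18.5 (2.01) to 10 weeks. Scaling to the upper quartile turned 1401 higher and 1380 lower at P3 into 1139 and 1773. Median-of-ratios scaling turned 2909 and 1462 into 2415 and 1913 from P3 to 10 weeks, and 2358 and 1014 into 1817 and 1294 from E18.5 to 10 weeks (upper quartile 1787 and 1342). Krt6a and Krt6b to Krt16 alone were 0.158, 0.614 and 4.88, and to Krt17 alone 0.0084, 0.0847 and 0.0611. Krt8 to Krt18 and Krt19 was 1.02, 0.654 and 0.310. Beyond the choice of reference, threshold, pseudocount or partner itself, the cause of these changes was not tested. Depth is unknown, which limits all values near 1 FPKM.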
